A study of Mus musculus with 6 samples.

Results

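Of the 19938 genes with a symbol of their own on the array, 10 genes of the maternal programme were followed in mouse embryonic stem (ES) cells sorted by a reporter of the two-cell state. They are Nlrp5, Tle6, Khdc3, Ooep, Padi6, Nlrp14, Zar1, Npm2, Btg4 and Kpna7, taken by gene symbol, and together they hold 11 probesets because Zar1 has 2. RNA was measured in 3 samples of reporter-positive (2C::tomato+) and 3 of reporter-negative (2C::tomato-) ES cells, separated by flow sorting, with replicates numbered 1 to 3 in each group. All 6 samples are titled WT, and the cells grew on gelatin. The protocol names vehicle or 4OHT, which deletes Kdm1a, without saying which of them a sample received, and no strain, clone number or passage is given. In published work this reporter is driven by the promoter of the endogenous retrovirus MERVL, so positive cells are defined by retroviral promoter activity and not by an embryonic origin. The question was whether transcripts that an egg stores for its embryo accompany the two-cell state in these cells.

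A growing oocyte stores RNA and protein that run the embryo until its own genome is transcribed, and genes needed from the mother for this are called maternal-effect genes. Several of their proteins sit together beneath the membrane of the egg as the subcortical maternal complex, built around NLRP5, TLE6, OOEP and KHDC3. In the mouse embryo, the two-cell stage is when most stored transcripts are destroyed while the zygotic genome is switched on. ES cells pass through a rare state that expresses transcripts of the two-cell embryo, and that state is what the reporter marks.

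Values are log2 expression after RMA, an array method that corrects background, equalises the distributions of the arrays and summarises the probes of each probeset. Array medians lay between 6.95 and 7.04, and with 6 arrays precision is limited by their number. Kdm1a itself lay between 10.9 and 11.2 on the 6 arrays. All 10 markers of pluripotent ES cells that were examined had a mean above the level that bounds the dimmest 30% of genes, a log2 level of 6.23, with values from 10.1 to 13.7. Of 7 oocyte markers, 2 exceeded that level, Zp3 and Gdf9. Positive array 2 stood apart by its two-cell-stage genes, and the arrays of replicate 2 in both groups differed from the others, so list and gene values that move with them are also given by replicate pair or with those arrays left out. No label states that the replicates were separate cultures, so the p-values reflect only how these samples vary, which may be a technical spread.

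Start-site windows from RefSeq (GRCm38.p6), 250 bases before to 50 after a transcript start, were found for 8 members, in 10 windows, and 4 are shown here. They belong to the members with the largest difference in each direction (Tle6 and Khdc3), to Zar1, whose probesets both separated the groups, and to Btg4, a member among the dimmest genes. Capitals mark E-boxes, the letters CANNTG, which read the same on both strands and may overlap, as in the window of Khdc3. E-boxes are the kind of site that the oocyte factor FIGLA and many other helix-loop-helix proteins bind.
Tle6, chr10:81600851-81601150, minus strand: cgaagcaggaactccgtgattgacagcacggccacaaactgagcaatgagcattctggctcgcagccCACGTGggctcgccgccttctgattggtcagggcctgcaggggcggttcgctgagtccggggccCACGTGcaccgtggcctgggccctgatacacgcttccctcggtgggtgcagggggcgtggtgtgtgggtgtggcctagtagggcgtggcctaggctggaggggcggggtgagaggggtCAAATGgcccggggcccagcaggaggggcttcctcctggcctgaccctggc
Khdc3, chr9:73102148-73102447, plus strand: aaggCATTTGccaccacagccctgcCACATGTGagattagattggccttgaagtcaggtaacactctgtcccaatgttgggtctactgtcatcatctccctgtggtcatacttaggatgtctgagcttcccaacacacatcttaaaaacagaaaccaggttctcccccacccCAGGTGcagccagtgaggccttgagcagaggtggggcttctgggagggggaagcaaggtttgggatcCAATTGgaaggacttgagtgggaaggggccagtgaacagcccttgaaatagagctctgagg
Zar1, chr5:72581035-72581334, minus strand: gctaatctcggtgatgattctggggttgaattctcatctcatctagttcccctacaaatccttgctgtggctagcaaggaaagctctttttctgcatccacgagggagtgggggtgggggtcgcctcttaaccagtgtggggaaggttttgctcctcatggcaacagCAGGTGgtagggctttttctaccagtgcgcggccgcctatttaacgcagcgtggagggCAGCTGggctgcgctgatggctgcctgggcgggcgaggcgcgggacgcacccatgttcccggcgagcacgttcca
Btg4, chr9:51115751-51116050, plus strand: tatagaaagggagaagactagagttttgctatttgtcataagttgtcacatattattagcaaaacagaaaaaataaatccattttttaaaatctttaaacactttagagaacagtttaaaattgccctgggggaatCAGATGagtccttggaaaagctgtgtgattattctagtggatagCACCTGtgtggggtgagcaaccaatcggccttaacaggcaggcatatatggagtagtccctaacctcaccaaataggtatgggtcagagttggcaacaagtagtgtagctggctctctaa

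The Khdc3 window holds 5 E-boxes, the Tle6 window shown holds 3, and those of Zar1 and Btg4 hold 2 each. All 10 member windows hold at least 1, as do 72.3% of all 32851 windows of this length. The homeobox motif TAATTG, searched on both strands, is present in 2 member windows, those of Ooep and Padi6, and in 8.0% of all windows. CpG dinucleotides number 18 in the Tle6 window shown, 17 in that of Zar1, 15 in that of Ooep, 1 in that of Btg4 and 0 in that of Khdc3. A second Tle6 window, not shown, holds 3 CpG and 4 E-boxes. The windows of Nlrp5 hold 9 and 1 CpG, that of Kpna7 holds 4 and that of Padi6 holds 2. The median over all windows is 7.0. A match describes letters only, and the arrays did not measure binding at these windows.

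None of the 10 maternal-effect genes passed the test between the sorted populations, and all of their differences were small beside those of two-cell-stage genes. In the limma fit over all 19938 genes, 0 members had an adjusted p under 0.05 (members from 0.910 to 0.993), and 0 had an unadjusted p under 0.05. The share of all genes called was 0%, and at an unadjusted p under 0.05 it was 1.95% (388 genes) for higher and 2.46% (490 genes) for lower values. Log2 differences, always positive minus negative, ran from -0.35 for Khdc3 to 0.21 for Tle6. Of the members, 7 had a value above 0 and 3 below, with a median of 0.05, beside a median of -0.04 over all genes and 39.8% of genes above 0. The split of 7 and 3 rested on single arrays: 4 were above 0 without positive array 3, without negative array 2 or with array weights, 9 without positive array 2, and 7 with both arrays of replicate 2 left out. A 2-fold rise lay outside the 95% interval of all 10 members, the highest upper bound being 0.60 for Ooep. A 2-fold fall lay outside the interval of 9 members, and the exception was Khdc3, with a lower bound of -1.18. These intervals come from the fit that does not pair arrays by replicate number. With the replicate numbers as a block the SE of Khdc3 was 0.13 instead of 0.35, and no interval was computed for that fit. With both arrays of replicate 2 left out, limma again called 0 members (smallest adjusted p 0.330), and 1 member, Zar1, had an unadjusted p under 0.05 and was lower, as were 9.46% of all genes there (5.35% were higher). The intervals are not adjusted for the number of genes, and RMA pulls dim probesets together, so small differences of the dim members can be understated. In RNA from sorted populations, fewer cells that express a gene and less RNA per cell cannot be told apart.

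**Figure D1:**
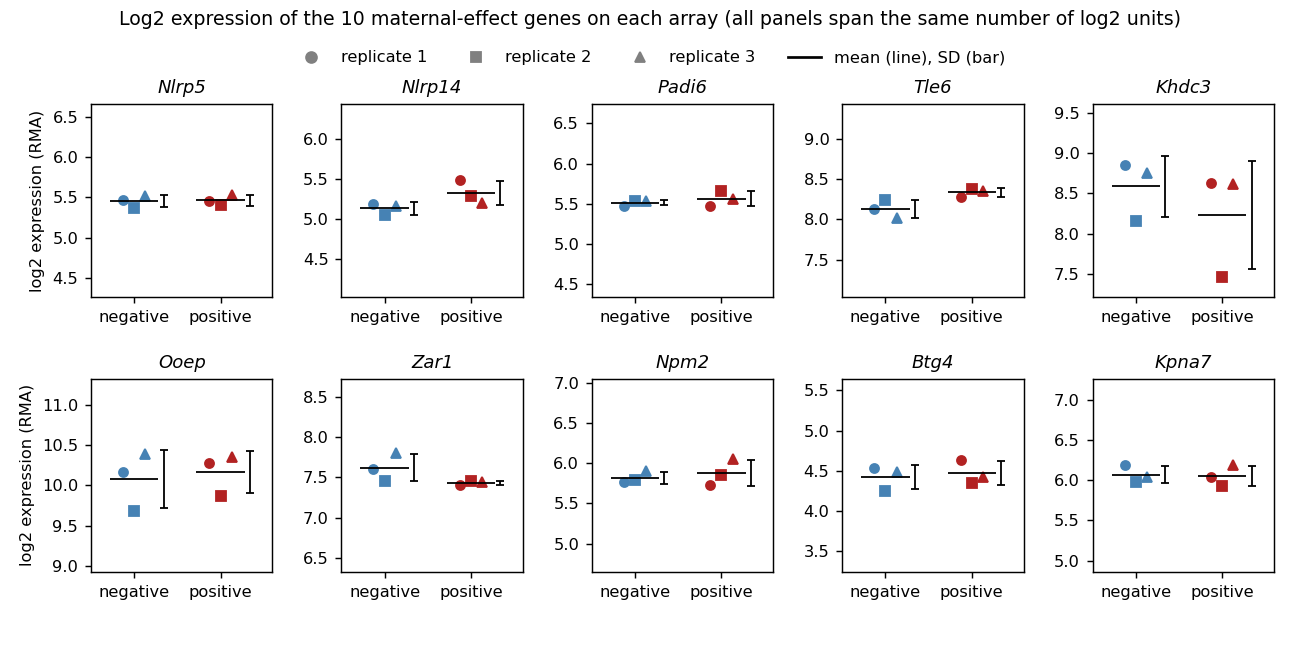
Log2 expression (RMA) of each member on the 3 negative (blue) and 3 positive (red) arrays, with marker shapes for replicate numbers, lines for means and bars for the SD. Panels span the same number of log2 units at different heights. Khdc3 and Ooep show replicate 2 below the other arrays in both groups, and Nlrp14, Tle6 and Zar1 are the panels without overlap.

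No gene of the core of the subcortical complex passed the test. Nlrp5, also called Mater, a scaffold of the complex, was at 5.46, 5.40 and 5.54 in positive arrays 1 to 3 and at 5.47, 5.37 and 5.51 in negative arrays 1 to 3. The groups interleaved, with means of 5.46 ± 0.07 (SD, n = 3) and 5.45 ± 0.07 (SD, n = 3), and the difference was 0.01 (SE 0.10, limma adjusted p = 0.993). Its range over the 6 arrays, 0.163, was the smallest of the 10 members. Its pseudogene Nlrp5-ps, which is no member and is given because its probes may resemble those of Nlrp5, was at 7.67, 8.44 and 7.49 in positive and 7.55, 7.49 and 7.61 in negative arrays. Only positive array 2 of Nlrp5-ps lay apart. The difference of Nlrp5-ps was 0.32 (SE 0.24, limma adjusted p = 0.915), and 0.03 without positive array 2.

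Tle6, a relative of the Groucho co-repressors that binds within the complex, was at 8.27, 8.37 and 8.36 in positive and at 8.13, 8.24 and 8.01 in negative arrays. All positive arrays lay above all negative ones, the nearest values being 8.27 and 8.24. Means were 8.34 ± 0.05 (SD, n = 3) and 8.13 ± 0.11 (SD, n = 3), a 1.16-fold difference (log2 0.21, SE 0.11) that fell short of the threshold (limma adjusted p = 0.910). Pairs of the same replicate number differed by 0.14, 0.14 and 0.34. With weights that limma gave to the arrays, the value was 0.28 with an unadjusted p of 0.00674 and an adjusted p of 0.0942. That was still short of the threshold, and over all settings its adjusted p was no lower. With those weights, 1899 of all 19938 genes were higher and 2952 lower at an unadjusted limma p under 0.05. Without weights these counts were 388 and 490.

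Ooep, also called Floped, a protein of the complex with an RNA-binding KH fold, was at 10.28, 9.87 and 10.36 in positive and 10.16, 9.68 and 10.39 in negative arrays. The lowest array of each group was replicate 2, and the groups overlapped. The difference was 0.09 (SE 0.22, limma adjusted p = 0.972), with pairs at 0.12, 0.19 and -0.03. Without negative array 2 it was -0.11.

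Padi6, a member of the peptidylarginine deiminase family needed for the cytoplasmic lattices of the egg, was at 5.47, 5.66 and 5.57 in positive and 5.48, 5.53 and 5.53 in negative arrays. Positive arrays spanned the negative ones on both sides. Its difference was 0.05 (SE 0.10, limma adjusted p = 0.971).

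Khdc3, also called Filia, the other KH-domain protein of the complex and one with a described role in genome stability of ES cells, had the largest difference in size among the members. It was at 8.63, 7.46 and 8.61 in positive and at 8.85, 8.15 and 8.75 in negative arrays. Replicate 2 was the low array of both groups, so the groups overlapped while each positive array lay below the negative array of its own number, by 0.22, 0.70 and 0.14 on the log2 scale. Means were 8.23 ± 0.67 (SD, n = 3) and 8.58 ± 0.38 (SD, n = 3), a difference of -0.35 (SE 0.35, limma adjusted p = 0.919). The replicate numbers were taken to pair the samples, which no label states. With them as a block the SE was 0.13 and the unadjusted limma p 0.0413. That made Khdc3 the 1 member below 0.05, where 6.61% of all genes were lower at that level. Its adjusted p with the block was 0.409. Without positive array 2 the difference was 0.04, and without negative array 2 it was -0.57. With both arrays of replicate 2 left out it was -0.18 (SE 0.11, limma adjusted p = 0.476). The groups did not overlap there, though fewer arrays separate more easily.

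The dip of Khdc3 in replicate 2 stood beside other shifts of those arrays. A set of 10 feeder fibroblast markers had their highest mean log2 level in replicate 2, at 8.04 in positive and 8.13 in negative arrays. That mean was 7.23 to 7.74 on the other arrays, and 8 of the 10 markers lay above the dimmest 30% of genes. The contractile genes Acta2, at 11.21 and 11.82 in replicate 2, and Tagln, at 9.86 and 10.96, raised it. Elsewhere they reached at most 9.85 and 8.44. The other markers did not move together. Col1a2 was highest of its group in both arrays of replicate 2, and Col3a1 was lowest. The 10 pluripotency markers had their lowest mean in replicate 2, at 11.88 and 12.06, against 12.27 to 12.34 on the others. They did not all fall. Nanog, Dppa5a and Tdgf1 had their highest positive value in array 2, and Sox2, Fgf4 and Dppa5a were not at their lowest in negative array 2. The part of either marker set in the values of Khdc3 was not tested. Replicate 2 was the lowest array of both groups for 5 of the 10 members (Nlrp5, Khdc3, Ooep, Btg4 and Kpna7), and for 29.6% of all genes. It was the highest array of both groups for 1 member, Tle6, and for 22.0% of all genes. The 5 genes nearest to Khdc3, by the root mean square gap between profiles centred on their own mean over the 6 arrays, were Tfrc, Coro2b, Elk3, Tsr2 and L1td1. Those gaps ran from 0.03 for Tfrc, the transferrin receptor, to 0.07 for L1td1, an RNA-binding protein of ES cells.

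Among the members outside the complex core, Nlrp14, an NLRP-family gene of the germ line, was at 5.49, 5.28 and 5.20 in positive and 5.19, 5.05 and 5.16 in negative arrays. The groups did not overlap, although positive array 3 and negative array 1 nearly met. Means were 5.32 ± 0.15 (SD, n = 3) and 5.13 ± 0.08 (SD, n = 3), a difference of 0.19 (SE 0.12, limma adjusted p = 0.910). Without positive array 1, the highest, it was 0.11.

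Zar1, an RNA-binding protein that keeps stored messages in the oocyte, was at 7.40, 7.45 and 7.44 in positive and at 7.60, 7.46 and 7.80 in negative arrays. Positive arrays were close together and all below the negative ones, though positive and negative array 2 nearly met. Means were 7.43 ± 0.03 (SD, n = 3) and 7.62 ± 0.17 (SD, n = 3), a difference of -0.19 (SE 0.12, limma adjusted p = 0.910). The second probeset of Zar1 was at 6.70, 6.74 and 6.48 in positive and 6.96, 6.87 and 6.82 in negative arrays. It separated the groups in the same direction, by -0.24 (SE 0.12), and did not pass among all probesets (limma adjusted p = 0.875). With array weights the first probeset gave -0.35 at an adjusted p of 0.0805, and over all settings its adjusted p was no lower. That setting lowered p for many genes, and the smallest adjusted p over all genes there was 0.0673.

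Npm2, the egg nucleoplasmin that remodels chromatin after fertilisation, was at 5.73, 5.86 and 6.05 in positive and 5.77, 5.79 and 5.90 in negative arrays. The groups overlapped, and the difference was 0.06 (SE 0.12, limma adjusted p = 0.969). Btg4, the adaptor that brings the CCR4-NOT deadenylase to maternal messages, was at 4.63, 4.35 and 4.43 in positive and 4.53, 4.25 and 4.48 in negative arrays. Its levels also interleaved, with a difference of 0.05 (SE 0.13, limma adjusted p = 0.974). Kpna7, the importin alpha of the oocyte, was at 6.04, 5.93 and 6.18 in positive and 6.19, 5.98 and 6.04 in negative arrays. The groups of Kpna7 interleaved too, and the difference was -0.02 (SE 0.12, limma adjusted p = 0.990).

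The 6 members Nlrp5, Nlrp14, Padi6, Npm2, Btg4 and Kpna7 were among the dimmest 30% of genes by the mean over all arrays, with values from 4.25 to 6.19. The other 4 members, Tle6, Khdc3, Ooep and Zar1, passed that filter. The file gives no detection call, so whether the dim members were transcribed at all is not known from these values. Differences of the 6 dim members ran from -0.02 to 0.19.

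**Figure D2:**
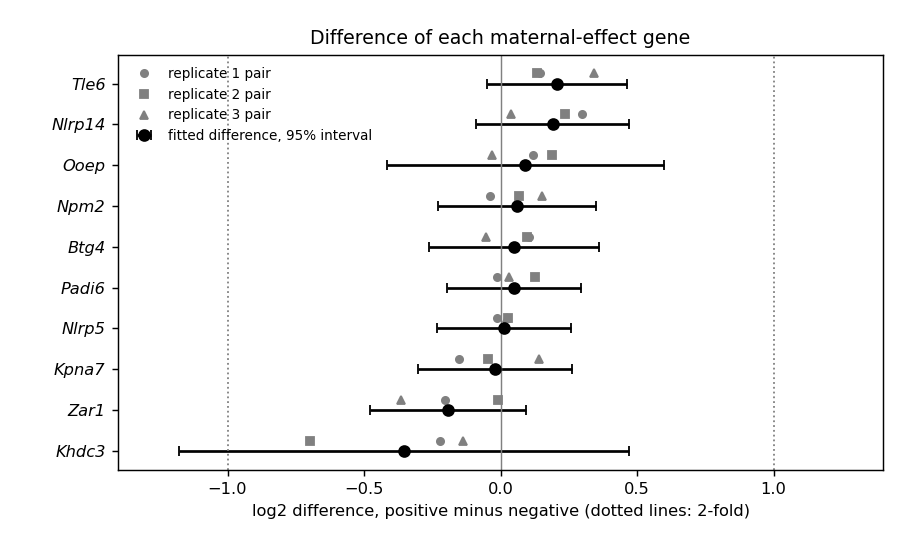
Log2 difference, positive minus negative, of each member with the 95% interval of the limma fit without a replicate block (black). The difference within each replicate pair is in grey, with shapes for replicate 1, 2 and 3. Dotted lines mark a 2-fold difference. All 10 intervals include 0, and that of Khdc3 reaches past the lower dotted line, to -1.18.

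Groups without overlap were 2 members higher (Nlrp14 and Tle6) and 1 lower (Zar1) in positive arrays, beside 4.08% of all genes higher and 7.15% lower, together 11.2%. With 10 members these counts are given as a description. The same 3 members were the ones whose difference exceeded the larger SD of the 2 groups, as it did for 22.5% of all genes. Over the replicate pairs, Nlrp14 and Tle6 were higher in all 3 (15.1% of all genes) and Khdc3 and Zar1 lower in all 3 (23.7% of all genes). No member reached a 2-fold difference in either direction, and of all genes 0.512% were at least 2-fold higher and 0.015% at least 2-fold lower.

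Two-cell-stage genes, switched on from the zygotic genome, give the scale of the difference between these cells. Such lists come partly from studies that used this reporter and cannot count as independent evidence of a direction. Of its 29 symbols 17 were measured, all 17 were higher in positive arrays by at least 2-fold, and their median difference was 3.22. Without positive array 2 all 17 were still higher, 12 by at least 2-fold, with a median of 1.88. With both arrays of replicate 2 left out 11 were at least 2-fold higher, with a median of 1.84. The smallest differences there were 0.27 for AF067061, 0.29 for Tcstv3 and 0.32 for Tdpoz1, beside -0.28 for Zar1 among the members. In the fit to all 6 arrays none of the 17 passed over all genes, and 12 had an unadjusted p under 0.05. The most different were Gm5662, a gene related to translation factor eIF1A, at 5.34 (SE 1.02, limma adjusted p = 0.910), and Tdpoz3, a TD-POZ domain gene, at 4.80 (SE 1.00, limma adjusted p = 0.910). They were 4.10 and 3.58 without positive array 2.

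By array, the mean log2 level of the 17 two-cell-stage genes was 8.14, 11.15 and 7.10 in positive arrays 1 to 3 and 5.80, 5.70 and 5.96 in negative ones. The mean of the 10 maternal-effect genes was 6.74, 6.56 and 6.77 in positive and 6.74, 6.55 and 6.76 in negative arrays. Positive array 2, with the most two-cell-stage RNA, had the lowest mean of the members among the positive arrays, as negative array 2 had among the negative ones. The median difference of the members within pairs 1, 2 and 3 was -0.01, 0.08 and 0.03, and that of the two-cell-stage genes was 2.30, 5.78 and 1.34. Padi6 and Tle6 alone among the members had their highest value of the 6 in positive array 2, as did 18.3% of all genes.

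**Figure D3:**
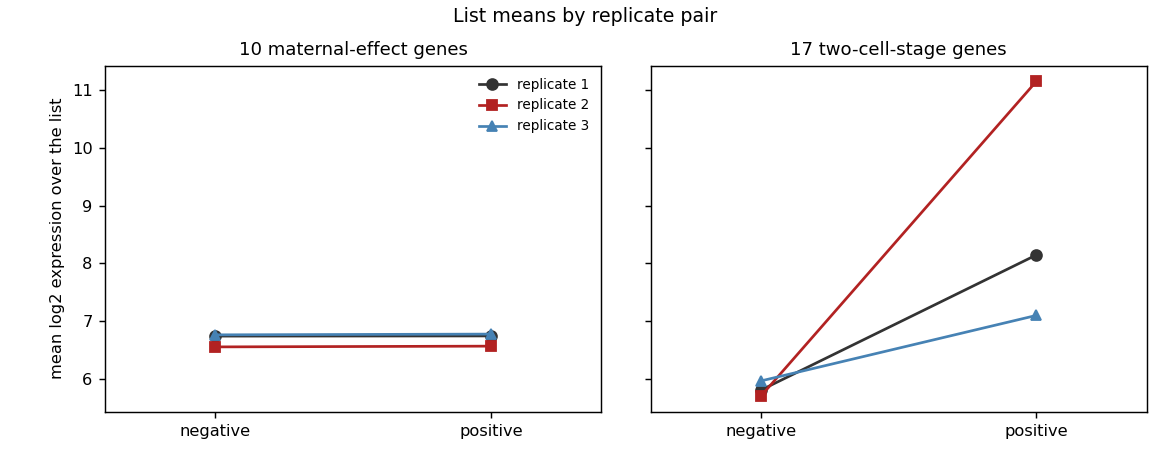
Mean log2 expression over the 10 maternal-effect genes (left) and over 17 two-cell-stage genes (right), with a line from the negative to the positive array of each replicate number. The lines on the left are flat, between 6.55 and 6.77, and those on the right end at 8.14, 11.15 and 7.10.

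Other genes that a mammalian oocyte stores or uses were taken from lists, and 0 genes of any list passed over all genes. Of 20 further oocyte NLRP, oogenesin and KH-domain genes 15 were measured, 13 of them among the dimmest 30%, and 6 were higher and 9 lower with a median of -0.01. Nlrp4c, an NLRP gene of the oocyte, was at 5.67, 6.25 and 5.69 in positive and 5.08, 5.03 and 5.06 in negative arrays, without overlap. Its difference was 0.81 (SE 0.17, limma adjusted p = 0.910), or 1.76-fold, and 0.62 without positive array 2. The Nlrp4 genes have close copies that may share probes with it, so this value is uncertain as that of a single gene. Nlrp9b differed by 0.29 (SE 0.21).

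Oocyte products numbered 18 measured genes, 5 higher and 13 lower, with a median of -0.07. Dazl, a germ cell RNA-binding protein, was at 9.38, 10.62 and 8.38 in positive and 8.68, 8.46 and 7.68 in negative arrays. These overlap, with a difference of 1.19 (SE 0.55, limma adjusted p = 0.910), which was 0.70, 2.16 and 0.70 in pairs 1, 2 and 3. For Zp3, the sperm-binding zona protein, the value was 0.49 (SE 0.57, limma adjusted p = 0.934), with pairs at 0.59, 0.24 and 0.63.

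Oocyte transcription factors, with 11 of 14 symbols measured, were 6 higher and 5 lower. Their median of 0.22 came with -0.03, 0.58 and -0.03 in pairs 1, 2 and 3, and it was -0.05 without positive array 2. Gtsf1, a piRNA-pathway protein kept on this list, differed by 0.63 (SE 0.20, limma adjusted p = 0.910) without overlap, and by 0.48 if positive array 2 was omitted. Obox6 was at 8.31 in positive array 2 and between 4.67 and 5.46 on the other 5 arrays.

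Maternal-effect genes that are also used outside the oocyte, 25 of 26 measured, were 14 higher and 11 lower with a median of 0.02, and none of them lay among the dimmest 30%. Dppa3, also called Stella, a guard of the maternal methylome, differed by 1.10 (SE 0.44, limma adjusted p = 0.910) on the brighter of its 2 probesets. The groups overlapped, with pairs at 0.80, 2.32 and 0.17, and the difference was 0.60 once positive array 2 was left out. Zfp36l2, an RNA decay factor, was at -0.37 (SE 0.22), or -0.11 when that array was left out.

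Genes of mRNA deadenylation and decay, the machinery that Btg4 serves, were 14 higher and 1 lower of 15 measured, with a median of 0.05 and 39.8% of all genes above 0. That count was 10 with a second quantile normalization, 9 without negative array 1 and 8 with array weights. Cnot8, a deadenylase subunit, differed by 0.29 (SE 0.15, limma adjusted p = 0.910). For Btg2, a relative of Btg4, the value was 0.62 (SE 0.44, limma adjusted p = 0.910), and its pairs differed by 0.48, 1.07 and 0.33.

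Relatives of the members outside the rule, such as other importins, nucleophosmins, deiminases and Groucho proteins, had 9 of 19 measured genes higher and 10 lower, with a median of -0.0033. Beside Btg2, the member of this list with the largest value was Kpna4, an importin alpha of somatic cells, at 0.21 (SE 0.15), with pairs at 0.19, 0.32 and 0.12.

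**Figure D4:**
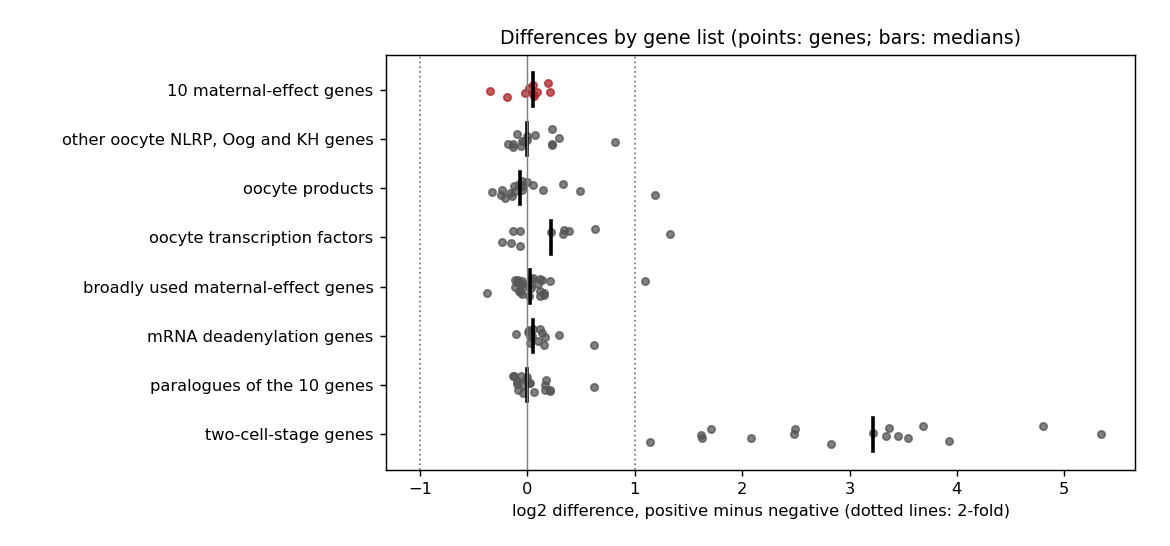
Log2 differences, positive minus negative, of the measured genes of each list (points, with vertical scatter for legibility) and their medians (bars). The 10 maternal-effect genes (red) lie between -0.35 and 0.21, and the 17 two-cell-stage genes lie to the right of the 2-fold line.

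Markers of other cell types were read beside these results. The mean log2 level of 10 endoderm markers, 8 of them above the dimmest 30% of genes, was 7.51 to 7.78 in positive and 7.81 to 8.0 in negative arrays. It was 7.78 and 7.81 in the positive and negative arrays of replicate 2. Of the 10 markers, 8 were lower in positive arrays, as were 12012 of all 19938 genes. The median difference of the markers was -0.24, -0.01 and -0.23 in pairs 1, 2 and 3. The differences were -0.46 (SE 0.29) for the transcription factor Gata4 and -0.44 (SE 0.48) for the adaptor Dab2. If positive array 2 was omitted they were -0.79 and -0.83, and with both arrays of replicate 2 left out -0.64 and -0.37. Feeder markers ranged from 7.23 to 8.04 in positive and 7.58 to 8.13 in negative arrays, with 4 of 10 higher and 6 lower in positive arrays. The largest differences in size were those of the contractile genes Acta2, at -1.16 (SE 1.06), and Tagln, at -1.13 (SE 1.06). They were -2.24 and -2.10 without positive array 2, and -1.43 and -1.14 with both arrays of replicate 2 left out. Thy1, a surface protein of fibroblasts, chosen after its values were seen, went the other way, at 0.55 (SE 0.21), without overlap, and 0.26 with both arrays of replicate 2 left out. In pairs 1, 2 and 3 Acta2 differed by -0.71, -0.60 and -2.15. Of the pluripotency markers 4 were higher and 6 lower, with a median of -0.06 that was 0.03 without positive array 2. The largest were Esrrb at -0.36 (SE 0.17) and Utf1 at -0.29 (SE 0.29), and without positive array 2 they were -0.18 and 0.07. None of these 7 genes passed over all genes, and their part in the members' values was not tested.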

How the data were processed

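Expression was measured on Affymetrix whole-transcript arrays from 100 ng of total RNA per sample, 3 reporter-positive and 3 reporter-negative. The authors deposited log2 values, 1 column per sample, made with RMA in Affymetrix Expression Console per the submitters' processing notes. For versions, build and annotation the status is: not given in the sources used here. The platform annotation paired 21789 of 35556 probesets with 1 symbol, and 21698 of these matched RefSeq (GRCm38.p6) by gene identifier, with 0 symbols changed. Probesets with several symbols (1621) or unlisted (12146) entered no named comparison. The probeset with the highest mean over the 6 arrays stood for each gene, and no dim gene was removed, which gave 19938 genes.

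Groups and replicate numbers came from the titles. The comparison used lmFit and eBayes of limma 3.58.1 under R 4.3.3 (two-sided, no covariate), with Benjamini-Hochberg adjustment over all 19938 genes and a threshold of 0.05. Errors are the SD over 3 arrays or the standard error (SE) of the fit. The fit was tested on simulated data with 200 changed genes. Their changes were larger than any member difference, and the noise was capped at the median residual SD. This check therefore does not show how sensitive the fit is to differences like those of the members. Across genes, same-numbered arrays deviated from their group means together, with r of 0.55, 0.55 and 0.46. Positive array 1 with negative array 3, and positive array 3 with negative array 1, each gave an r of 0.20. An array 2 with a differently numbered array of the other group gave an r from -0.52 to -0.41. Deviations of 3 arrays from their mean sum to 0, so these r values are not independent of each other. The numbers were taken to pair the samples, although no label explains the numbers. The members and lists were chosen with earlier results of these data known. All members are named, and of each other list the 2 genes with the largest absolute difference. Nlrp5-ps and Thy1 lie outside that rule. Alternatives were the replicate number as a block, 2 rescalings, a filter on the dimmest 30%, means over probesets, all probesets, array weights, trend and robust moderation, and leaving out each array or both arrays of replicate 2.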

Additional observations from a re-analysis of the deposited data

How the results depend on the processing

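No member and no gene passed under any of the alternatives run. The smallest adjusted p over all genes was 0.0673, with array weights, and the replicate block, at 0.363, changed no call. The median over the members, 0.05, was -0.0502 without the dimmest 30% of genes, where 4 members remained, and -0.0148 with array weights, and it lay between -0.0315 and 0.0685 when 1 array was left out. Members without overlap, 2 higher and 1 lower, became 1 higher with median centring (Nlrp14) or without the dimmest 30% (Tle6), and 2 lower with both arrays of replicate 2 left out (Khdc3 and Zar1). With 1 array left out there were 2 to 3 higher and 1 to 2 lower. Fewer arrays separate more easily, and the share of all genes without overlap was not counted in these settings. Signs of small differences turned, and so did that of Khdc3, the largest in size among the members. Kpna7 was 0.011 with a second quantile normalization and 0.0316 with array weights, and array weights gave -0.0203 for Nlrp5, -0.0212 for Npm2, -0.0565 for Ooep and -0.0093 for Padi6. Leaving out 1 array gave -0.035 to 0.1099 for Btg4, -0.5679 to 0.035 for Khdc3, -0.0853 to 0.0414 for Kpna7, -0.0279 to 0.0439 for Nlrp5, -0.0254 to 0.1356 for Npm2 and -0.1061 to 0.2457 for Ooep. Signs of Nlrp14, Tle6 and Zar1 held in each setting that tested them, and the filter left Nlrp14 out. The causes were not tested.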
